A study of Canis lupus with 23 samples.

Results

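Endothelial cells line every blood and lymphatic vessel, and a gene set of 34 endothelial genes was followed here through 23 canine tumors. The set was drawn up from genes known in endothelium and was matched by gene symbol to the probesets of the Affymetrix Canine Genome 2.0 array. Of the 34 genes, 30 had at least 1 probeset of that symbol, with 57 probesets in all, out of 15115 genes on the array. SOX7, SOX17, SOX18 and STAB2 had none and were not analysed here.

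RNA was taken from tumor biopsies of pet dogs, and each array holds the tumor of a different dog. The tumors comprised 1 hemangiosarcoma (HSA), the malignant tumor of endothelial cells, and 22 others of 7 types: 7 lymphomas, 5 melanomas, 4 sarcomas, 3 transitional cell carcinomas of the bladder (TCC) and 1 each of hepatocellular carcinoma (HCC), nasal tumor and histiocytic sarcoma. The sarcomas join 2 tumors labelled STS and 2 labelled sarcoma. The labels give no treatment, and no normal tissue or purified endothelium was part of the comparison. The diagnosis label and the title of the HSA name no organ.

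In endothelium, junction proteins such as VE-cadherin hold neighbouring cells together, receptor kinases of the TIE and VEGF families carry signals for growth and survival, and transcription factors of the ETS family keep the endothelial program running. The cells also store and display proteins that govern clotting and the capture of leukocytes. In a solid tumor the vessels are supplied by the host, so these genes are often read as a measure of vessel content, whereas in hemangiosarcoma the tumor cells themselves are of endothelial type. In bulk RNA, fewer cells of a type and less RNA per cell cannot be told apart.

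Expression is given as log2(signal + 16), averaged over the probesets of a gene. On this scale a signal of 0 reads 4, so values near 4 are dim, and the added 16 understates the change of dim genes. Each array was already scaled by the authors; the median signal ran from 82.1 to 132 (121 in the HSA), and 19.8% to 27.2% of probesets lay under a signal of 16 (22% in the HSA). The log2 ratio of the 3' over 5' actin control was 6.46 in the HSA and 4.87 to 9.05 in the other tumors. Marker genes followed the labels: the mean of 4 pigment genes was 11.2 to 11.9 in the melanomas and at most 6.33 elsewhere, 4 uroplakins averaged 10.4 to 11.3 in the TCC, and 4 liver genes averaged 13.7 in the HCC. The number of arrays limits the precision, and a type with a single tumor has no replicate and was not tested.

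The endothelial genes stood highest in the HSA. Of the 30 genes, 23 (76.7%) were at least 1 log2 unit above the mean of the other 22 tumors, against 13.6% of all genes on the array, and 13 were at least 2 units above it, against 2.72% of all genes. The HSA was the highest of the 23 tumors for 17 of the genes (56.7%) and the second highest for 5, and it was the highest tumor for 4.66% of all genes. The median difference was 1.91 over the 30 genes and -0.00 over all genes. AQP1 was the 1 gene at least 1 unit lower in the HSA, a side on which 8.68% of all genes lay, and the other 6 genes were within 1 unit. No other tumor was highest for more than 2 of the genes. The HSA is 1 tumor, so these differences are descriptions of that tumor.

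**Figure D1:**
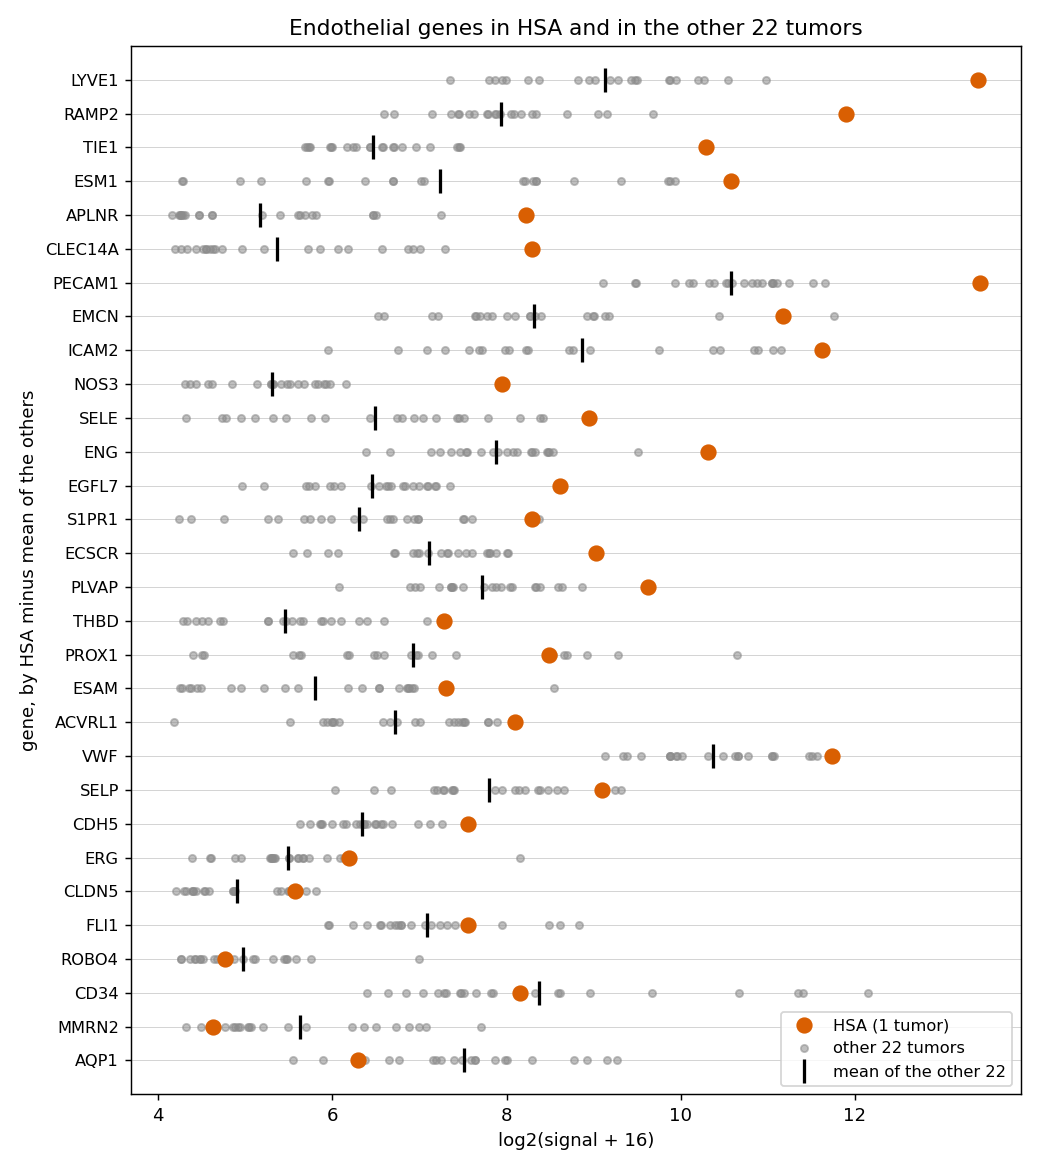
Log2(signal + 16) of the 30 endothelial genes (rows, ordered by the difference). The HSA is the large orange point, the other 22 tumors are grey points and the black tick is their mean. The HSA point lies right of every grey point for 17 genes, by the widest margin for TIE1, RAMP2 and LYVE1.

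Among the 14 genes of junctions and the cell surface, 10 were at least 1 unit higher in the HSA, with a median difference of 1.91. PECAM1, an adhesion molecule of endothelial junctions that platelets and leukocytes also carry, read 13.44 in the HSA, whereas the other tumors had a lowest value of 9.11, a median of 10.66 and a highest value of 11.65. All 4 of its probesets gave a difference between 2.74 and 2.98. ENG, the TGF-beta co-receptor endoglin, read 10.31 in the HSA and 6.39, 7.95 and 9.51 as the lowest, median and highest of the others. For both genes the HSA lay above every other tumor, 1.78 units beyond the next one for PECAM1.

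CLEC14A, a C-type lectin of tumor vessels, read 8.30 in the HSA, while the lowest, median and highest of the other tumors were 4.19, 4.85 and 7.29. EGFL7, a protein secreted by endothelium, read 8.62 in the HSA and between 4.96 and 7.35, with a median of 6.63, in the others. No other tumor reached the HSA for either gene, whereas 1 tumor did so for EMCN and 1 for ICAM2. EMCN, a sialomucin of capillaries and veins, read 11.17 in the HSA and 6.52 to 11.76 with a median of 8.18 in the others, of which only melanoma 0 was higher. ICAM2, a ligand of leukocyte integrins that lymphocytes also express, read 11.62 in the HSA and 5.96 to 11.66 with a median of 8.48 in the others, of which only lymphoma 4 was higher.

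The other surface genes differed less or not at all. ECSCR, which takes part in endothelial cell movement, differed by 1.92 in the HSA, PLVAP, the protein of the diaphragms in fenestrated capillaries, by 1.91, and ESAM, a junction adhesion molecule, by 1.50. ECSCR and PLVAP were higher in the HSA than in any other tumor, and ESAM, at 7.30 in the HSA, was exceeded by lymphoma 1 at 8.55. CLDN5, a tight junction protein, and ROBO4, a guidance receptor of vessels, differed by 0.66 and -0.20 and were dim throughout, with no tumor above 5.82 for CLDN5 and 6.99 for ROBO4. MMRN2, a matrix protein that CLEC14A binds, was at 4.63 in the HSA, with a mean of 5.63 in the others.

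CD34, a sialomucin of small vessels that stem cells and some stromal cells also carry, did not follow the other surface genes. It read 8.16 in the HSA, and the other tumors had 6.40, 7.73 and 12.15 as their lowest, median and highest values. The HSA ranked 10 of 23, and the 4 highest values belonged to STS 0, STS 1, sarcoma 1 and lymphoma 1. Set against the 4 sarcomas alone, the difference of the HSA was -2.99.

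Of the 8 receptors and signalling proteins, 7 were at least 1 unit higher in the HSA, with a median difference of 2.85. RAMP2, which joins the calcitonin-like receptor to form the adrenomedullin receptor, read 11.90 in the HSA, and the other tumors had 6.60, 7.88 and 9.68 as lowest, median and highest. TIE1, the receptor kinase that works beside TEK, read 10.29 in the HSA and 5.68, 6.43 and 7.46 in the others. On the signal + 16 scale these were 15.6-fold and 14.2-fold the geometric mean of the others, which is the mean taken on the log2 scale. All 3 probesets of RAMP2 (3.90 to 4.02) and both of TIE1 (3.74 and 3.92) carried the difference.

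ESM1, the proteoglycan endocan of sprouting tip cells, read 10.58 in the HSA and ranged widely in the others, with 4.27, 7.04 and 9.93 as the lowest, median and highest values. APLNR, the apelin receptor, read 8.23 in the HSA and 4.16, 4.91 and 7.24 in the others. NOS3, the nitric oxide synthase of endothelium, read 7.95 in the HSA and 4.30, 5.37 and 6.15 in the others. In all of these genes the HSA was the highest tumor, although APLNR and NOS3 were dim in most other tumors and did not pass the brightness filter used for the tests among types.

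S1PR1, a sphingosine-1-phosphate receptor shared with lymphocytes, was 1.99 units higher in the HSA, second only to lymphoma 0 (8.29 in the HSA, against 8.37). ACVRL1, the receptor ALK1 for BMP9, was 1.38 units higher and highest of all tumors. AQP1, a water channel of capillaries that red cells and several epithelia also use, was the exception, with 6.29 in the HSA and 7.51 ± 1.01 (SD, n = 22) in the others, and the HSA ranked 21 of 23.

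Among the 4 genes of coagulation and leukocyte capture, all were at least 1 unit higher in the HSA and 3 were highest there. SELE, the selectin of activated endothelium, read 8.95 in the HSA and 4.32, 6.77 and 8.42 as the lowest, median and highest of the others. VWF, the carrier of clotting factor VIII and a classic endothelial stain, read 11.74 in the HSA, only just above the next tumor (11.56 in lymphoma 0), and its others averaged 10.37 ± 0.73 (SD, n = 22). THBD, thrombomodulin, was 1.83 units higher, and SELP, the selectin of endothelial granules and platelets, 1.30 units higher with rank 3.

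LYVE1 gave the largest difference of the set. This hyaluronan receptor of lymphatic and sinusoidal endothelium, found on some macrophages too, read 13.41 in the HSA, whereas the others had 7.35, 9.23 and 10.98 as lowest, median and highest, the highest being the histiocytic sarcoma. The HSA was 19.5-fold the geometric mean of the others on the signal + 16 scale. PROX1, the transcription factor of lymphatic endothelium, which hepatocytes also express, was 1.56 units higher in the HSA but ranked only 7 of 23, and the HCC was highest at 10.65.

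The ETS factors ERG and FLI1 differed by 0.69 and 0.47 units as gene means, and for both the mean concealed probesets that behaved differently. The bright ERG probeset read 9.68 in the HSA and averaged 7.01 in the others, a difference of 2.66, while the other 3 gave at most 1.68 and 2 of them lay on the negative side. The bright FLI1 probeset read 10.65 in the HSA and averaged 9.02 in the others (difference 1.63), and the dim one gave -0.69. CDH5, the VE-cadherin of endothelial junctions, was affected in the same way: its bright probeset read 13.50 in the HSA and averaged 10.18 in the others (difference 3.32), its other 3 gave -0.52 to 1.12, and the gene mean was 7.56 in the HSA and 6.34 in the others. Of the 19 genes with several probesets, 15 had all of them on the same side in the HSA, and the exceptions were CDH5, ERG, FLI1 and ROBO4.

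**Figure D2:**
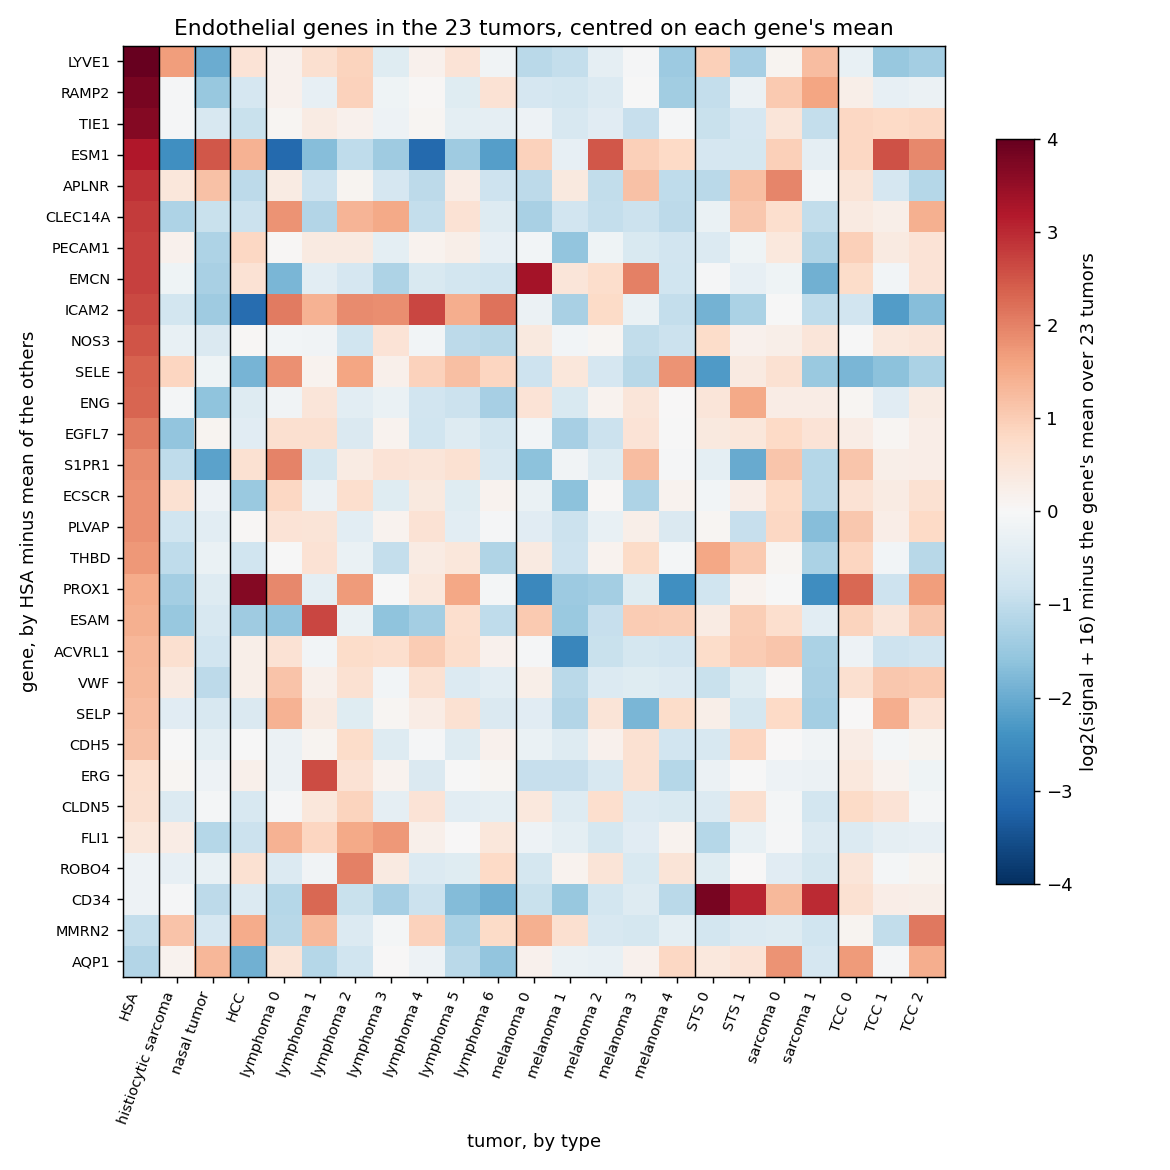
Log2(signal + 16) of the 30 endothelial genes (rows) in the 23 tumors (columns, grouped by type, HSA at the left), with each gene's mean over the tumors subtracted; red is above and blue below that mean. The HSA column is red for most genes, ICAM2 is red across the lymphomas, and CD34 is red in the sarcomas. FLI1 is paler in the lymphomas and close to its mean in lymphomas 4 and 5.

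Averaged over the 30 genes, the level was 8.81 in the HSA. The next tumors were sarcoma 0 at 7.56 and TCC 0 at 7.50, and the lowest was melanoma 1 at 6.35, so the HSA was 5.55 SDs above the mean of the other 22. When 9 genes that leukocytes or platelets also express were left out, the HSA stood at 8.43 and the next tumor at 7.12. LYVE1, found on some macrophages too, was not among the 9 and stayed in that mean. Among the types with replicates, the level was 7.29 ± 0.24 in TCC (SD, n = 3), 7.11 ± 0.25 in lymphoma (n = 7), 7.04 ± 0.44 in sarcoma (n = 4) and 6.76 ± 0.25 in melanoma (n = 5). Neighbouring types in this order overlapped, and only the TCC (7.03 to 7.50) and the melanomas (6.35 to 6.98) did not. The HCC was at 6.83, the histiocytic sarcoma at 6.82 and the nasal tumor at 6.51.

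**Figure D3:**
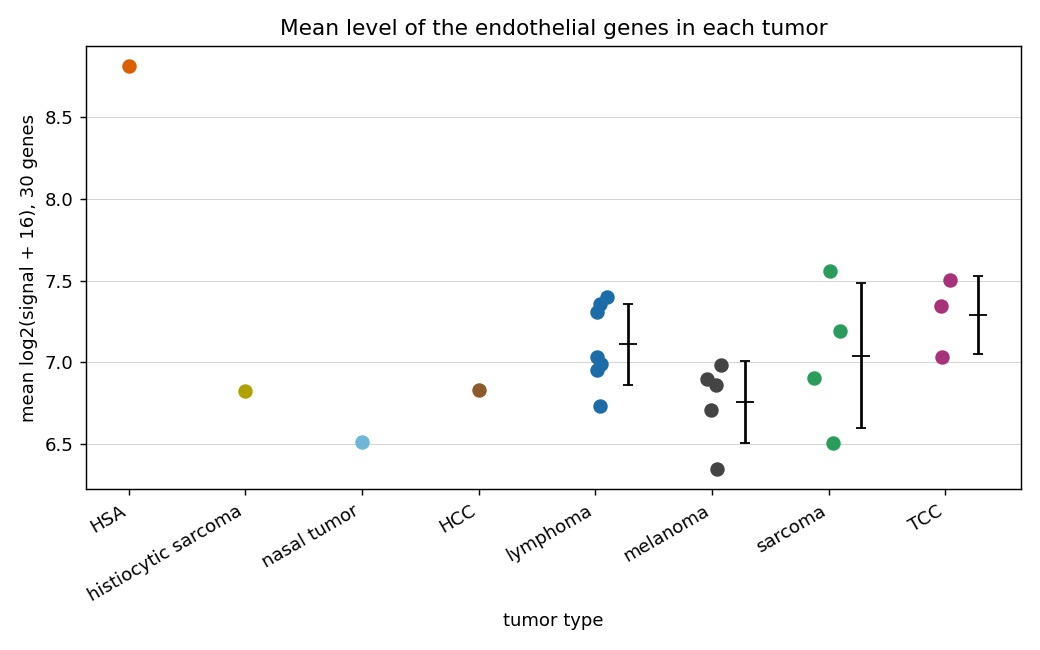
Mean log2(signal + 16) over the 30 endothelial genes (vertical axis) in each tumor, by type; points are tumors and the bars beside them give the mean and SD for types with over 1 tumor. The HSA at 8.81 lies above every other tumor, all of which are between 6.35 and 7.56.

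The lists of related genes and of other cell types showed what else was high in the HSA. Of 19 genes of vessel growth signalling, 12 were at least 1 unit higher in the HSA (13.6% of all genes) and 8 were highest there (4.66% of all genes). PGF (-1.06) and JAG2 (-1.39) were at least 1 unit lower, and VEGFA, VEGFB, NOTCH4 and HEY1 differed by at most 0.23. KDR, the main VEGF receptor of endothelium, read 13.49 in the HSA and averaged 9.59 in the others, FLT1, the VEGF decoy and signalling receptor, differed by 3.09, NRP1, a VEGF co-receptor, by 2.67 and ANGPT2, the endothelial ligand of TEK, by 2.13. Of 12 genes of mural cells, which wrap vessels, 8 were at least 1 unit higher and their mean was 8.79 in the HSA and 6.54 to 8.33 in the others. The smooth muscle genes MYH11 (13.04 in the HSA, mean 8.04 in the others), CNN1 (difference 3.49) and DES (3.05) led that list, whereas RGS5, a marker of pericytes, was lower in the HSA (difference -3.66).

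Marker lists of macrophages, erythroid cells and platelets were also high in the HSA, and those of leukocytes in general and of lymphocytes were less so. Over all genes, 13.6% were at least 1 unit higher in the HSA, and the counts below stand beside that share. The mean of 10 macrophage genes was 11.15 in the HSA and 7.58 to 11.27 in the others, second to the histiocytic sarcoma. Of the 10, 8 were at least 1 unit higher, led by MARCO at 4.65, while CD68 (0.08) and MRC1 (0.66) were not. Of 6 erythroid genes, 4 were at least 1 unit higher, ALAS2 by 4.57, while KLF1 (-0.70) and TFRC (-0.64) were lower. The list averaged 7.97 in the HSA and 5.73 to 7.15 in the others. Of 6 platelet genes 5 were higher by that measure, and the list averaged 7.34 in the HSA and 5.07 to 6.39 in the others. ITGB3 was the platelet gene short of 1 unit (0.90). Only 2 of the 6 erythroid genes and 2 of the 6 platelet genes passed the brightness filter. The 10 general leukocyte genes averaged 9.55 in the HSA, rank 9, with 2 at least 1 unit higher. The 4 lymphocyte genes averaged 8.62 in the HSA, rank 10, with 1 at least 1 unit higher. The part of these cells in the values of PECAM1, LYVE1, SELP, VWF and the other genes they share was not tested. All 5 fibroblast genes were at least 1 unit lower in the HSA, against 8.68% of all genes.

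**Figure D4:**
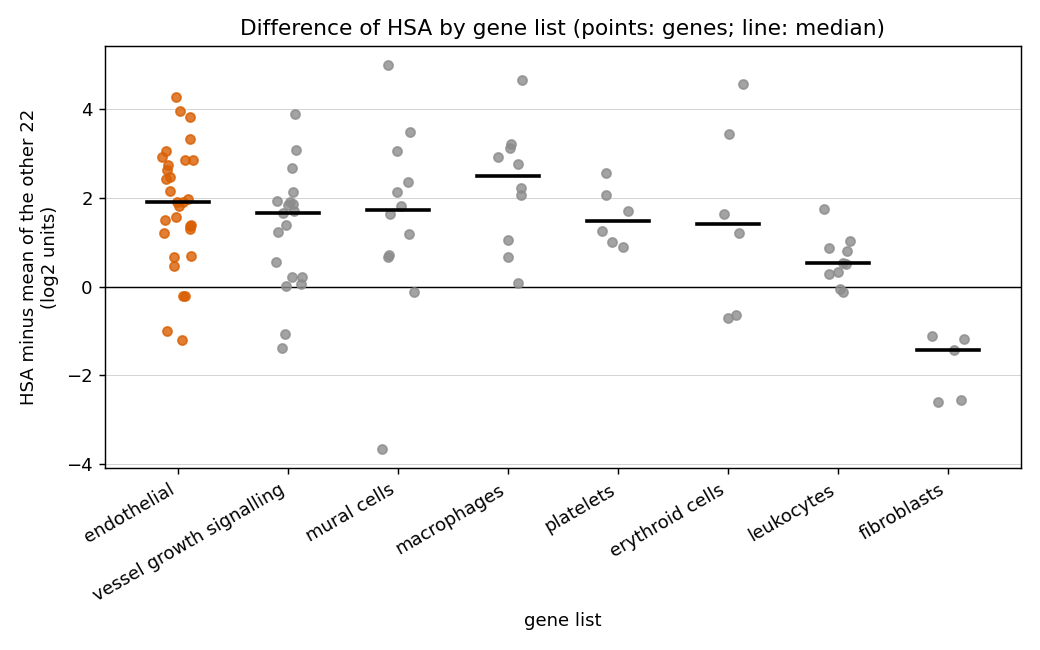
Difference of the HSA from the mean of the other 22 tumors (vertical axis, log2 units) for the 30 endothelial genes (orange) and 7 further lists (grey); points are genes and black lines are medians. The endothelial median is 1.91, the macrophage genes have the highest median at 2.49, and the fibroblast genes have the lowest at -1.44.

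In the 4 types with replicates, the question was whether the endothelial genes differed between tumors that are not of endothelial origin. The 21 of the 30 genes that exceeded the median of all gene values (7.03) in at least 3 tumors were tested. ESAM, ERG, CLDN5, ROBO4, MMRN2, CLEC14A, THBD, NOS3 and APLNR were too dim. In 1 limma fit over 9972 genes, each type was set against the mean of the 3 remaining types, weighted equally. A call needed an adjusted p under 0.05 together with a change of at least 1 log2 unit. The F test over the 4 types passed for 12 of the 21 genes (57.1%, against 35.6% of all genes), and 10 of the 21 were called in at least 1 comparison, as were 26.9% of all genes. The 4 comparisons share tumors, so a gene that is high in one type is set against a lower mean there and a raised mean elsewhere.

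In lymphoma, 3 endothelial genes were higher (14.3%, against 6.95% of all genes) and 4 were lower (19%, against 12.1%), and the median change of the 21 was 0.20 (0.07 over all genes). ICAM2 was 10.37 to 11.66 with a median of 10.89 in the 7 lymphomas and 6.76 to 9.75 in the 12 melanomas, sarcomas and TCC. The groups did not overlap, and the log2 fold change was 2.93 (SE 0.30, adjusted p = 1.02e-06). FLI1 was 7.13 to 8.83 with a median of 7.95 in lymphomas and 5.95 to 7.24 in the other types, a change of 1.29 (SE 0.26, adjusted p = 0.000853), and only the lowest lymphoma reached into the range of the others. Its bright probeset gave 2.28 and the dim one 0.30. SELE was 6.74 to 8.42 with a median of 7.51 in lymphomas and 4.32 to 8.39 in the other types, with a change of 1.75 (SE 0.44, adjusted p = 0.00539), and the groups overlapped through melanoma 4, sarcoma 0, STS 1 and melanoma 1.

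ICAM2 and FLI1 are genes of lymphocytes as well as of endothelium. Of the 10 general leukocyte genes, 9 were higher in lymphoma, and their mean was 10.35 to 11.15 in the lymphomas, against a range of 7.37 to 8.76 for melanomas, 7.50 to 9.36 for sarcomas and 7.30 to 7.59 for TCC. Their part in the lymphoma values was not tested.

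ESM1, CD34, EMCN and AQP1 were called lower in lymphoma than the mean of the 3 remaining types. ESM1 was 4.27 to 6.37 with a median of 5.70 in lymphomas, close to the floor of the scale in the dimmest, and 6.69 to 9.93 in the other types, with no overlap and a change of -2.84 (SE 0.40, adjusted p = 2.94e-05). CD34 was 6.40 to 10.67 with a median of 7.22 in lymphomas and 6.85 to 12.15 in the other types (change -1.53, adjusted p = 0.0138), with lymphoma 1 far above the other lymphomas. The mean of CD34 was 7.56 in lymphoma, 7.42 in melanoma, 8.72 in TCC and 11.15 in sarcoma, so lymphoma was not below melanoma. EMCN was 6.59 to 8.00 with a median of 7.69 in lymphomas and 6.52 to 11.76 in the other types (change -1.21, adjusted p = 0.0333). EMCN was no longer called when TCC 0, TCC 2, lymphoma 0 or lymphoma 3 was left out (adjusted p = 0.0552 to 0.0781). AQP1 was 5.89 to 7.98 with a median of 6.65 in lymphomas and 6.77 to 9.27 in the other types, a change of -1.17 (adjusted p = 0.0162). The groups overlapped, and AQP1 was the only called gene that did not pass the F test (adjusted p = 0.0522).

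In TCC, 3 genes were higher (14.3%, against 6.82% of all genes) and 1 was lower (4.76%, against 4.36%), with a median change of 0.52 (-0.08 over all genes). TIE1 was 7.46, 7.43 and 7.45 in TCC 0, 1 and 2 and 5.68 to 7.12 in the other types. The groups did not overlap, and the change was 1.15 (SE 0.31, adjusted p = 0.0188). Besides the TCC, only sarcoma 0 and the HSA exceeded 7.03 for TIE1. The brightness filter thus kept this gene only through the type in which it was called. The 14.3% therefore includes a gene that its TCC values brought into the test, and is no support for a general rise in TCC. With no filter on dim genes TIE1 was still called in TCC (adjusted p = 0.0281). VWF was 11.07, 11.51 and 11.47 in the TCC and 9.14 to 11.56 in the other types, a change of 1.23 (SE 0.32, adjusted p = 0.0143). ESM1 was 8.21, 9.93 and 9.32 in the TCC and 4.27 to 9.88 in the other types, a change of 2.18 (SE 0.52, adjusted p = 0.00825). VWF and ESM1 overlapped with other types, VWF through lymphoma 0 alone and ESM1 through sarcoma 0 and melanomas 0, 2 and 3.

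The TCC calls rested on 3 tumors. TIE1 was not called without TCC 0, 1 or 2 (adjusted p = 0.0845, 0.0807 and 0.0775), VWF was not called without TCC 1 (0.0891) or TCC 2 (0.0762), and ESM1 was not called without TCC 1 (0.0972) or TCC 2 (0.0523). ICAM2 was lower, with 8.22, 6.76 and 7.29 in TCC 0, 1 and 2 and 7.09 to 11.66 in the other types (change -1.72, SE 0.39, adjusted p = 0.00559), and without TCC 1 its adjusted p was 0.0783. The mean of ICAM2 was 7.42 in TCC, 7.94 in sarcoma, 8.59 in melanoma and 10.92 in lymphoma, so the lymphomas raised the mean that TCC was set against. PECAM1 passed the adjusted p in TCC (0.0405) at a change of 0.94, short of 1 unit.

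In sarcoma, 1 gene was called higher (4.76%, against 4.33% of all genes) and 0 lower (0%, against 1.71%), and the median change was -0.41 (-0.04 over all genes). At an unadjusted p under 0.05, 5 of the 21 genes and 22% of all genes passed. CD34 was 12.15 in STS 0, 11.41 in STS 1, 9.67 in sarcoma 0 and 11.35 in sarcoma 1, and 6.40 to 10.67 in the other types. The change was 3.24 (SE 0.54, adjusted p = 0.00112), and the groups overlapped only through lymphoma 1, which lay above sarcoma 0. Both CD34 probesets carried the difference, the brighter one at 3.49. The call held with each of the 19 tumors left out in turn. All 5 fibroblast genes were lower in lymphoma and 4 were higher in sarcoma, and their part in the CD34 values was not tested.

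In melanoma, 0 genes were higher (0%, against 2.55% of all genes; at an unadjusted p under 0.05 in either direction, 10 of the 21 and 19.9% of all genes passed) and 2 were lower (9.52%, against 1.77%). The median change was -0.54 (-0.05 over all genes). Melanomas 0, 1 and 2 had the highest actin 3' over 5' ratios of the 23 arrays (9.05, 8.06 and 6.99, against at most 6.66 in any other tumor). The same ratio for the GAPDH control gave a partly different order, in which these melanomas were still among the higher arrays. It was highest in STS 1 (9.74), and was 7.24, 8.57 and 7.01 in melanomas 0, 1 and 2 and 8.06 in lymphoma 2. Without melanomas 0, 1 and 2 the median change was -0.39 (0.02 over all genes). In that fit, with 2 melanomas left, 0 of the 21 genes were called, and the share of all genes called was not counted. A fit with 2 melanomas left has little power to call a gene, so it cannot decide the part of the actin ratio. The part of the actin and GAPDH ratios in the melanoma values was not tested. PROX1 was 4.40, 5.55, 5.64, 6.51 and 4.53 in melanomas 0 to 4 and 4.50 to 9.28 in the other types (change -1.99, SE 0.54, adjusted p = 0.0346). CD34 was 7.46, 6.85, 7.65, 7.85 and 7.29 in melanomas 0 to 4 and 6.40 to 12.15 in the other types (change -1.73, SE 0.50, adjusted p = 0.0462). The mean of CD34 was 7.42 in melanoma and 7.56 in lymphoma, and the sarcomas at 11.15 raised the mean that melanoma was set against. Both genes overlapped with the other types.

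Both melanoma calls depended on single tumors. CD34 kept its call in only 4 of the 19 fits with 1 tumor left out, losing it without any one melanoma, any one TCC, STS 0, STS 1, sarcoma 1 or lymphoma 0, 2, 3 or 4 (adjusted p up to 0.123, without melanoma 1). PROX1 lost its call without TCC 0, TCC 2 or melanoma 0, 1, 2 or 4 (adjusted p up to 0.0968, without melanoma 0). EMCN was 11.76, 8.92, 9.13, 10.44 and 7.64 in melanomas 0 to 4, the widest spread of the gene in any type (SD 1.57, n = 5), and its change of 1.51 was not called (adjusted p = 0.0608), although it was called without melanoma 4 (adjusted p = 0.0107).

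**Figure D5:**
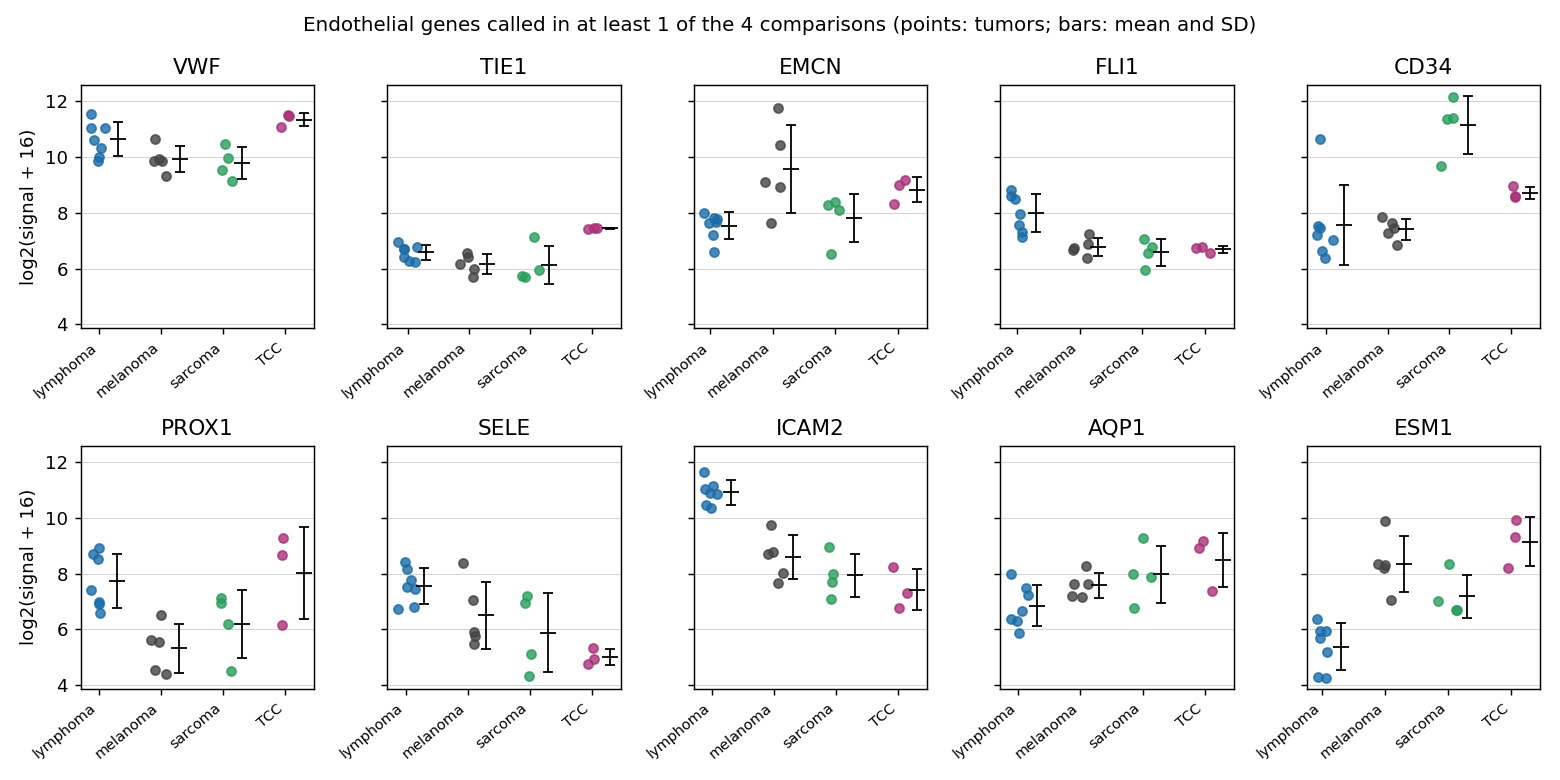
Log2(signal + 16) (vertical axes) of the 10 endothelial genes called in at least 1 of the 4 comparisons, by tumor type; points are tumors and the bars beside them give the mean and SD. ICAM2 and ESM1 separate the 7 lymphomas from the other 12 tumors in opposite directions, and CD34 is highest in the sarcomas.

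The other 11 tested genes were called in no comparison, although PECAM1, LYVE1 and ACVRL1 passed the F test (adjusted p = 0.0269, 0.038 and 0.028). CDH5 had changes from -0.19 to 0.17 as a gene mean, and its bright probeset alone gave 0.86 in TCC and -0.74 in melanoma. LYVE1 was 9.57 ± 0.48 in lymphoma (SD, n = 7), 8.54 ± 0.57 in melanoma (n = 5), 9.56 ± 1.14 in sarcoma (n = 4) and 8.25 ± 0.66 in TCC (n = 3). ENG was highest in sarcoma at 8.64 ± 0.58 (n = 4) and lowest in lymphoma at 7.51 ± 0.58 (n = 7), and its change of -0.72 in lymphoma passed the adjusted p (0.0359) without reaching 1 unit. RAMP2, EGFL7, ECSCR, PLVAP, S1PR1 and SELP did not pass the F test, with adjusted p from 0.14 to 0.392.

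The endothelial genes did not all vary together. Over the 21 tested genes, the median Pearson correlation of a pair was 0.29 in the 23 tumors (210 pairs), 0.14 in the 22 without the HSA and 0.20 in the 19 tumors of the 4 types after each type was centred. The tumors share an array design and platform, and the values are descriptions. PECAM1, VWF, ECSCR and PLVAP stayed close to the mean of the tested genes within types (r = 0.83, 0.72, 0.67 and 0.67, n = 19), whereas CD34 (-0.13), LYVE1 (-0.05) and RAMP2 (0.05) did not.

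Genes outside the set were ranked by their correlation with the mean of the 21 tested genes. Over the 23 tumors the closest was MYCT1 (r = 0.94), followed by LDB2 (0.86), GJA5 (0.86), NOSTRIN (0.85), KANK3 (0.83), TM4SF18 (0.82), MYH11 (0.77), ALAS2 (0.76), SHE (0.76) and CD93 (0.74). All 10 were higher in the HSA than in every other tumor, and without the HSA the correlation was 0.89 for MYCT1, 0.39 for ALAS2, 0.34 for SHE and 0.54 to 0.70 for the other 7. Within types (n = 19), MYCT1 was again closest (0.86), and TM4SF18 (0.80) was the other gene common to both rankings, beside NES (0.85), POLR2E (0.85), TMEM219 (0.83), TOR2A (0.79), TREM2 (0.78), ANAPC5 (0.77), CCNI (0.77) and MAPK1IP1L (0.76).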

How the data were processed

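Tumor RNA was amplified with the NuGEN Ovation Pico WTA system and hybridised to 1 array per tumor. The deposited values are intensity signals that the authors made with MAS5, which scales each array; the software version was not given in the sources used here. Of 42924 probesets that are not controls, 29254 have 1 symbol in the platform annotation and 439 have several, which were not used. Symbols were not updated. Each signal was converted to log2(signal + 16), probesets were averaged per gene, and 9972 of 15115 genes with at least 3 of 23 arrays above 7.03 were kept. The 19 tumors of 4 types were fitted in limma 3.58.1 (R 4.3.3; lmFit, contrasts.fit, eBayes with a variance trend), two-sided, with Benjamini-Hochberg adjustment over all kept genes; the steps were tested on simulated data. The endothelial genes, the marker lists and the tests were chosen with earlier results of these data known. All endothelial genes are named. Other lists give up to 4 examples by size, with genes that did not follow them, and the 10 most correlated genes are named. Alternatives were the pseudocount, quantile normalization, the filter, the brightest probeset, the variance trend, the title number as a block, each tumor left out, STS labels alone, other reference tumors and other thresholds.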

Additional observations from a re-analysis of the deposited data

Results flagged for a closer look

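Among 93 groups of 4 to 7 tumors (30 endothelial genes and their mean level in lymphoma, melanoma and sarcoma), 6 (6.45%) held a tumor far from the others of its type, and chance gives about 1 in 20. In lymphoma, lymphoma 1 stood alone for ERG at 8.15 (next 6.09) and for CD34 at 10.67 (next 7.52). In melanoma, melanoma 3 was high for ERG at 6.13 (next 4.88), a dim gene. In sarcoma, sarcoma 1 was low for EMCN at 6.52 (next 8.10) and for ACVRL1 at 5.51 (next 7.52), and STS 1 was high for ENG at 9.51 (next 8.48).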

How the results depend on the processing

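No called change and no HSA difference of at least 1 unit changed direction under the alternatives run, while the small ROBO4 difference was 0.21 against the sarcomas alone. Of 201 recomputed HSA differences 189 moved by less than the spread of the other tumors, and of 406 recomputed calls 359 were kept. Part of both counts could not change. Restricting the set to the 21 genes kept by the filter repeats their main differences. The brightest probeset repeats the differences of the 11 genes with 1 probeset. The adjusted p alone keeps all 14 calls. The median HSA difference was 2.34 with a pseudocount of 1 and 1.48 with 64, and 13 genes were at least 2 units higher. The melanoma count was 1 with a pseudocount of 1, with no filter on dim genes and with no variance trend. The sarcoma count was 2 with quantile normalization and with STS labels alone, by a lower ICAM2. TIE1 in TCC lost its call with a pseudocount of 64 (change 0.76) and with the brightest probeset (adjusted p = 0.0981), and AQP1 in lymphoma with a pseudocount of 64 (change -0.89). With 1 tumor left out, the count ran from 6 to 9 for lymphoma, from 0 to 2 for melanoma, from 1 to 3 for sarcoma, from 1 to 6 for TCC and from 9 to 13 for the F test. TCC had 1 call without TCC 1 and 1 without TCC 2, and 6 without sarcoma 0, which also gave 3 in sarcoma; without STS 1 sarcoma had 2. Tumors of different types that share a title number come from different dogs and did not deviate together (mean r = 0.0105 over 23 pairs). With that number as a replicate block, 7 genes passed the F test, and lymphoma had 5 calls, melanoma 0, sarcoma 1 and TCC 3. Leaving out melanomas 0 to 2 together, chosen after seeing the data, gave 0 calls in melanoma and 7 genes in the F test, and EMCN in lymphoma was not called (adjusted p = 0.0533). Shares over all genes were counted for the main settings only. The changes in these counts therefore cannot be read as particular to the endothelial genes. The causes were not tested. Genes near the floor of the scale and the small numbers of tumors limit these values.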
